A study of Mus musculus with 4 samples.

Results

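Genes of the TRIM (tripartite motif) protein family were examined in the liver of outbred CD-1 female mice treated with small interfering RNA (siRNA) against Cux2. The product of Cux2 is a homeobox transcription factor, and the stated purpose of the study was to find the genes that change in female liver when it is depleted. Members were all array probes whose RefSeq accession belonged to a gene symbol of Trim followed by a digit, with 1 such symbol set aside: 79 probes for 50 genes. Of these, 41 genes were tested, having a probe that the scanner marked well above background in 2 or more of the 8 channel readings, among 25092 genes tested in all. The other 9 genes (Trim15, Trim29, Trim31, Trim42, Trim50, Trim61, Trim65, Trim66 and Trim80) were below that level, and 18 further TRIM symbols of the gene table, Trim5 and Trim38 among them, had no probe that could be named here. Of the tested members, 38 were well above background in all 8 readings, and Trim60, Trim9 and Trim17 in 5, 3 and 3 of them. The 41 genes were divided into 13 known from general knowledge to be induced by interferon and 28 others.

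All mice were 8 weeks old. Each of the 4 arrays set 1 pool of Cux2 siRNA-treated livers against 1 pool of livers given a non-specific siRNA, with 2 arrays at day 5 after treatment and 2 at day 8. The treated pools held 3 and 2 mice at day 5 and 2 and 2 mice at day 8. Both days shared the same control material, 13 mice in 2 pools of 6 or 7, and the labels say neither the day on which control mice were killed nor the pool that each array carried. Replicate 1 of each day had the treated pool in Alexa 647 and replicate 2 had it in Alexa 555. Ratios are therefore given as log2 of treated over control, 1 per array, so that a value of -1 means that 50% of the control signal was left. A gene was said to rise or fall when limma's moderated test, adjusted by the Benjamini-Hochberg method over all 25092 genes, gave an adjusted p under 0.05. Since the control pools recur, the 4 ratios are not fully independent. The p-values measure the spread between the 2 arrays of a day, not between single mice. Those 2 arrays differ in treated pool and in dye, so pool and dye cannot be told apart in that spread.

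Most TRIM proteins carry a RING domain, which attaches ubiquitin to other proteins, followed by B-box zinc fingers and a coiled coil. The domain at the other end, often a SPRY domain, picks the target. One branch of the family acts in innate immunity: its genes are switched on by interferon, through transcription factors that bind interferon-stimulated response elements (ISREs) in promoters, and its proteins restrict viruses or tune the sensors that start the interferon response. Other branches act in muscle, on microtubules, in neurons or on chromatin.

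The labels were checked on the targeted gene. The log2 ratios of Cux2 were -1.91 and -1.70 on the day 5 arrays and -1.07 and -1.20 on the day 8 arrays. All 4 were below 0, and the gene fell at day 5, with 28.6% of the control signal left (log2 ratio -1.81, SE 0.09, adjusted p = 0.00299), as well as at day 8, with 45.6% left (-1.13, SE 0.09, adjusted p = 0.00702). Without background subtraction its value over both days was -0.96 in place of -1.47. The single-day calls of Cux2 were lost with median centring (adjusted p = 0.129 and 0.277), and that of day 8 also without its replicate 2 (0.0659), while the call over both days held in each case (adjusted p = 0.0329 and 0.00612). Between 71.1% and 74.6% of spot readings were well above background, and hepatocyte markers were bright in every channel, with a summed signal of 749000 to 1170000 in control channels and 740000 to 1020000 in treated channels.

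The interferon-induced TRIM genes were lower after Cux2 knockdown, and most of the others changed little. Over both days, 11 of the 13 interferon-induced genes fell, Trim6 rose and Trim69 did not pass, whereas 1 of the 28 others fell, 4 rose and 23 did not pass. The median log2 ratio over both days was -0.54 for the interferon-induced genes, 0.03 for the others and 0.00 for all genes tested. Of all genes tested, 31.1% were called over both days, 16.3% as falls and 14.8% as rises. The share called was 92.3% among the interferon-induced members and 17.9% among the others. The 11 falls became 4 without background subtraction, 8 with processed signals and 2 with median centring. Under each of these, 12 of the 13 genes stayed below 0. Falls among all genes were 4089 in the main setting and 3024, 2950 and 182 in the same order.

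The separation was present on each array. The median of the 13 interferon-induced genes was -0.35 and -0.77 on the day 5 arrays and -0.47 and -0.51 on the day 8 arrays. In the same order, 11, 11, 12 and 12 of the 13 genes were below 0. The medians of the 28 others lay at 0.02, 0.04, 0.02 and 0.06, with 11, 11, 13 and 11 genes below 0. The interferon list was chosen with earlier results of these data known, so these counts describe the list and are no test of it.

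At day 5, 11 of the 41 members were called, against 16.8% of all genes. The interferon-induced genes gave 6 falls and 1 rise, and the others 1 fall and 3 rises, where 9.43% of all genes fell and 7.38% rose. At day 8, 7 members were called, against 14.3% of all genes. There the interferon-induced genes gave 5 falls and 1 rise, and the others 1 rise, where 8.05% of all genes fell and 6.27% rose. The group medians were -0.60 and 0.05 at day 5 and -0.50 and 0.04 at day 8. Counts at a single day rest on 2 arrays: without replicate 2 of day 5, 2 members were called at that day, without replicate 1 of day 5, 6, without replicate 1 of day 8, 3 at day 8, and without replicate 2 of day 8 only Trim30a. With arrays centred on their median in place of the intensity-dependent (loess) normalization, 0 members were called at either day. At an unadjusted p under 0.05 by limma there were 7 and 6, and over both days Trim30a and Trim30d alone were called. Of all 25092 genes, that setting called 5 at day 5, 3 at day 8 and 269 over both days.

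**Figure D1:**
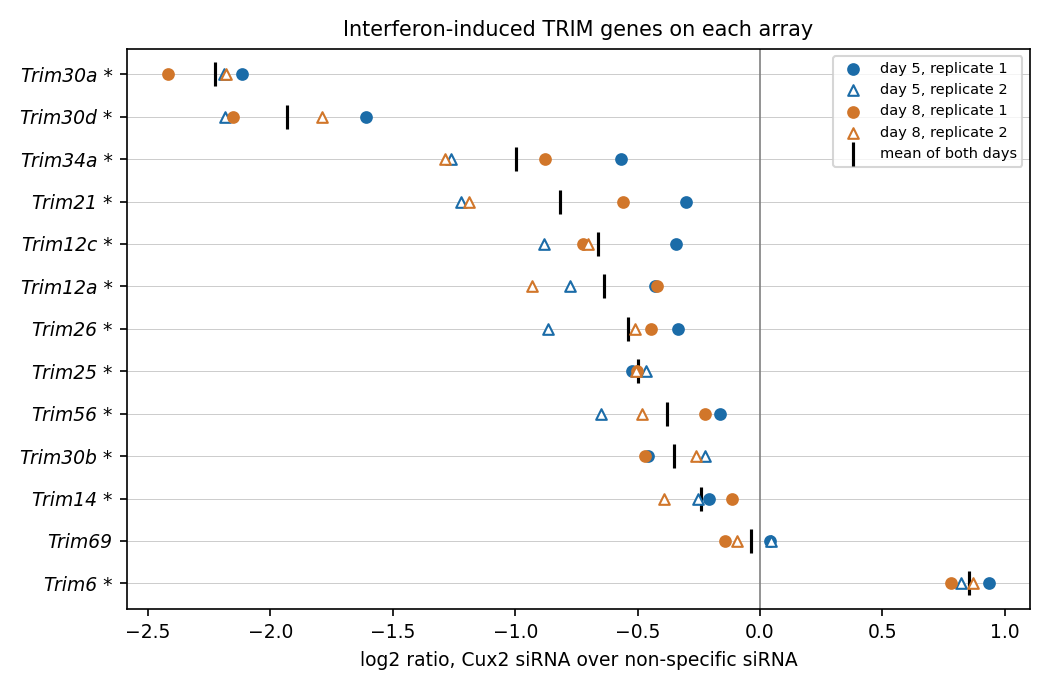
Log2 ratio of Cux2 siRNA over non-specific siRNA (x axis) for the 13 interferon-induced TRIM genes (rows) on each of the 4 arrays. Points are arrays, black bars are means of both days, and an asterisk marks an adjusted p under 0.05 over both days. Trim30a and Trim30d lie between -2.42 and -1.61 on every array, and Trim6 is the gene at the right with all 4 arrays between 0.78 and 0.93.

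Trim30a had the lowest ratio of all members. It encodes a RING protein known to restrain inflammatory signalling from Toll-like receptors. Its control signals were 3770 to 4290 and its treated signals 705 to 970, so the groups did not overlap. The log2 ratios were -2.12 and -2.19 at day 5 and -2.42 and -2.18 at day 8, a mean of -2.23 over both days (SE 0.06, adjusted p = 0.000397), or 4.68-fold lower. Both days passed on their own, with adjusted p of 0.00219 and 0.00192. A second Trim30a probe, with a mean of -2.10, was also below 0 on all 4 arrays.

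Trim30d, the neighbouring paralog, followed. Its ratios were -1.61 and -2.18 at day 5 and -2.15 and -1.79 at day 8, and its treated signals of 299 to 489 lay below all control signals, which were 1330 to 1690. The fall over both days was -1.93 (SE 0.12, adjusted p = 0.00168), 3.82-fold. Trim30b, the third paralog measured, fell far less: -0.46 and -0.22 at day 5, -0.47 and -0.26 at day 8, and -0.35 over both days (SE 0.07, adjusted p = 0.0201), a call that was lost without background subtraction (-0.09, adjusted p = 0.0569) and without replicate 1 of either day (adjusted p = 0.0807 and 0.0742). It was dim, with signals of at most 119 in control and 86.3 to 102 in treated channels. With the scanner's processed signals, which differ in background method and dye normalization, it was -0.82. Probe sequences were not among the sources used here, so cross-hybridisation between the Trim30 paralogs was not tested, and their separate sizes are uncertain. Trim12a and Trim12c, and Trim34a and its copy Trim34b, stand under the same reserve.

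Trim34a, a SPRY protein related to the retrovirus restriction factor TRIM5, had log2 ratios of -0.57 and -1.26 at day 5 and -0.88 and -1.29 at day 8. The mean over both days was -0.999 (SE 0.14, adjusted p = 0.00851), or 2.00-fold lower, with treated signals of 374 to 662 below control signals of 689 to 1610. Both days passed on their own, with adjusted p of 0.0419 and 0.0319, but not with processed signals (0.0843 and 0.0685) or without background subtraction (0.145 and 0.126). Its 3 probes gave means of -0.999, -1.21 and -1.28. On both days the replicate with the treated pool in Alexa 555 was the lower one. The call over both days was lost without background subtraction (-0.74, adjusted p = 0.0524).

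Trim12c and Trim12a are mouse relatives of the same restriction factor. The ratios of Trim12c were -0.35 and -0.88 at day 5 and -0.72 and -0.70 at day 8, and it fell by 0.66 over both days (SE 0.10, adjusted p = 0.00999) as well as at each day (adjusted p = 0.0474 and 0.0373). Both single-day calls of Trim12c were lost with processed signals (adjusted p = 0.0958 and 0.0843) and without background subtraction (0.115 and 0.103). That of day 5 was also lost with no filter on dim probes (0.0512). Without either array of the other day, its day 5 call was lost, and without background subtraction its value over both days was -0.40. Trim12a had ratios of -0.43 and -0.77 at day 5 and -0.42 and -0.93 at day 8. It passed over both days only (-0.64, SE 0.11, adjusted p = 0.015), with treated signals of 96.7 to 110 against control signals of 130 to 209. Both groups stood apart in both genes, but Trim12a was dim: its value was -1.14 with processed signals and -0.21, not called, without background subtraction, and its call was lost without replicate 2 of day 5 (adjusted p = 0.0595). Its second probe was not well above background in any reading.

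Most of the interferon-induced members that fell are neighbours. The gene table places Trim6, Trim34a, Trim5, Trim12a, Trim34b, Trim12c, Trim30b, Trim30c, Trim30a and Trim30d in this order on mouse chromosome 7, with 1 non-TRIM gene model, Gm38525, between Trim12c and Trim30b. Of these 10 TRIM genes, 7 were tested, all of them on the interferon list, which was chosen with earlier results known. Over both days 6 of the 7 fell, where 16.3% of all genes fell, and the one at the edge of the run, Trim6, rose. An effect of position was not tested. Trim21 is on the same chromosome outside this run. The other members that fell lie elsewhere.

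The annotated starts of these genes were searched for the core of the ISRE, spelled GAAA, any 2 bases, GAAA and read on both strands, in RefSeq windows (GRCm38.p6) of 250 bases before to 50 after each start. A window was found for 12 of the 13 tested interferon-induced members, Trim14 having none in the table. Of these, 7 (58.3%) held a match: Trim12a, Trim12c, Trim21, Trim26, Trim30a, Trim30d and Trim34a. Among the others with a window, 1 of 20 (5.0%) held one, which was Trim2, and among all genes with a window 1079 of 27025 (3.99%). The 7 stretches are printed because they carry the match, in capitals, that these genes share; each is read 5′ to 3′ along the strand of its gene, where TTTC, any 2 bases, TTTC is the motif on the opposite strand, and overlapping matches run together.
Trim30a, chr7:104465194-104465259, minus strand: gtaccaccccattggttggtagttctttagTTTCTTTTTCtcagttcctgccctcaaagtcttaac
Trim30d, chr7:104507851-104507920, minus strand: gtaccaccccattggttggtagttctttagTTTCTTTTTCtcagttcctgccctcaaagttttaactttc
Trim12c, chr7:104353350-104353408, minus strand: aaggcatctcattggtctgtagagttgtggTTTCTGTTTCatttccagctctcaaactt
Trim12a, chr7:104315466-104315495, minus strand: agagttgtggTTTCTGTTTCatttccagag
Trim34a, chr7:104244457-104244486, plus strand: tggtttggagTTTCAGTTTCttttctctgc
Trim21, chr7:102565450-102565479, minus strand: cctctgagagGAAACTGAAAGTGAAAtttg
Trim26, chr17:36836956-36837031, plus strand: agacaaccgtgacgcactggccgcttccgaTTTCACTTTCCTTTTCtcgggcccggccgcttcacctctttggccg

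The match lay close to the annotated start in 6 of the 7 genes. Counting the first transcribed base as 0, the first base of the match was at -36 in Trim30a, -41 in Trim30d, -29 in Trim12c, and 10 in both Trim12a and Trim34a. Trim21 held overlapping matches at 13 and 19, and Trim26 overlapping matches farther upstream, at -160 and -154. Trim30a had a second annotated start, at another place on the chromosome, with a match of its own at 2. The windows of paralogs are not independent of one another: those of Trim30a and Trim30d were identical at 276 of 295 bases (93.6%), and those of Trim12a and Trim12c at 188 of 260 (72.3%). Trim6, Trim25, Trim30b, Trim56 and Trim69 held no match in this window. A second motif, the core of the gamma-activated site, spelled TTC, any 3 bases, GAA, matched 0 of the 12 interferon-induced windows and 2 of the 20 others (Trim45 and Trim46), against 9.55% of all genes. These matches describe letters, and binding was not measured.

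**Figure D2:**
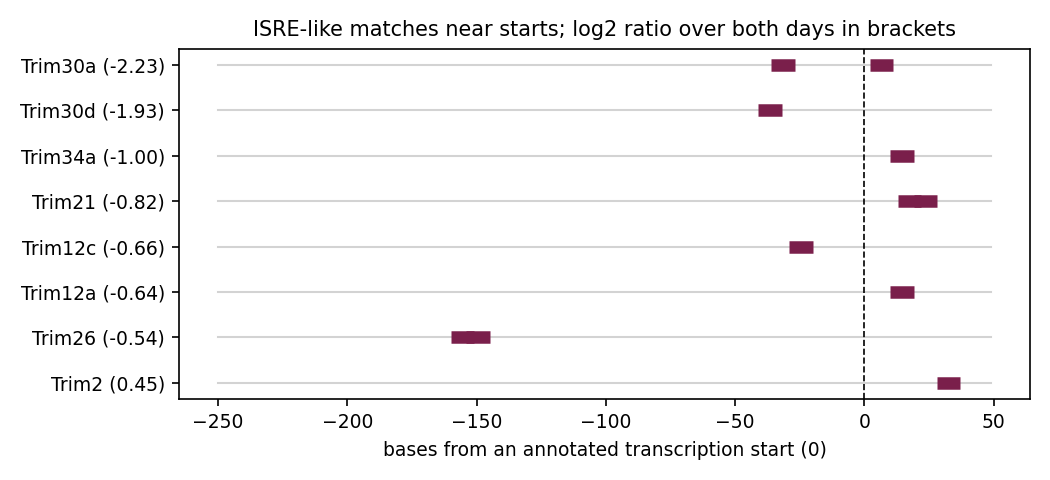
Position of ISRE-like matches (bars) in the window around the annotated start of the 8 TRIM genes that hold one; the x axis is the distance in bases from the start, grey lines show the window, and the log2 ratio over both days stands in brackets. In 7 of the 8 genes the match lies within 50 bases of the start, and in Trim26 it begins at -160.

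Trim21, Trim25, Trim26 and Trim56 are the members best known for acting on immune signals or on antibody-bound virus. Trim21 is a cytosolic antibody receptor that marks antibody-coated virus for destruction. Its ratios were -0.30 and -1.22 at day 5 and -0.56 and -1.19 at day 8, a mean of -0.82 (SE 0.19, adjusted p = 0.0312), with treated signals of 2470 to 3200 below control signals of 3640 to 7300. The spread followed the replicate number, replicate 2 being lower than replicate 1 by 0.78 on average. It passed at neither day alone (adjusted p = 0.121 and 0.0969). The call over both days was lost with processed signals (-0.80, adjusted p = 0.0608), without background subtraction (adjusted p = 0.0952) and without replicate 2 of either day (adjusted p = 0.0709 and 0.105).

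Trim25 attaches ubiquitin to the RNA sensor RIG-I, the product of Ddx58, and works with the antiviral protein ZAP. On the probe that stood for it, Trim25 was the steadiest of the members that fell, with -0.52 and -0.46 at day 5 and -0.50 and -0.51 at day 8. Its mean was -0.50 (SE 0.05, adjusted p = 0.00342), 1.41-fold lower. Its treated signals of 9420 to 10700 were below control signals of 13000 to 15100 without overlap, and each day passed (adjusted p = 0.0154 and 0.0166), though not with processed signals (0.0619 and 0.0627). A second Trim25 probe was less even, from -0.46 to -0.16 across the arrays, with a mean of -0.34.

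Trim26, a ubiquitin ligase encoded within the major histocompatibility region of chromosome 17, had ratios of -0.33 and -0.86 at day 5 and -0.45 and -0.51 at day 8. It fell by 0.54 over both days (SE 0.10, adjusted p = 0.017), and its second probe gave -0.53. Of the single days only day 5 passed (adjusted p = 0.0494), and that call, too, was lost without either array of the other day. The call over both days was lost with processed signals (adjusted p = 0.0518), without background subtraction (0.0526) and without either array of day 8 (0.0516 and 0.0669). Trim56, an antiviral ubiquitin ligase, gave -0.16 and -0.65 at day 5 and -0.22 and -0.48 at day 8, a mean of -0.38 (SE 0.10, adjusted p = 0.0466). Trim56 passed narrowly, and its call was lost with processed signals (adjusted p = 0.0797), without background subtraction (0.116), with no filter on dim probes (0.0526) and on leaving out any array but replicate 1 of day 5 (0.0739 to 0.164). In both genes all treated signals were below all control signals, 5230 to 6970 against 8280 to 9930 for Trim26 and 1810 to 2230 against 2420 to 3020 for Trim56.

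Trim14 lacks a RING domain and serves as an adaptor of the mitochondrial antiviral protein MAVS. Its ratios were -0.21 and -0.25 at day 5 and -0.12 and -0.39 at day 8, the smallest fall of the 11 (-0.24, SE 0.06, adjusted p = 0.0471). It was lost with processed signals (adjusted p = 0.0717), without background subtraction (-0.11, adjusted p = 0.0901) and without any array but replicate 1 of day 8 (0.135 to 0.17). Trim69, also on the interferon list, had 0.04 and 0.05 at day 5 and -0.14 and -0.09 at day 8, a mean of -0.04 (SE 0.05, adjusted p = 0.599). Trim69 was dim, with 78.6 to 92.6 in treated channels and overlapping control signals of 86.8 to 91.9, and with processed signals its mean was -0.30 and passed (adjusted p = 0.0445).

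Trim6 went the other way. Its protein binds the kinase IKK epsilon and takes part in interferon signalling. Its ratios were 0.93 and 0.82 at day 5 and 0.78 and 0.87 at day 8, a rise of 0.85 over both days (SE 0.05, adjusted p = 0.00161), or 1.81-fold. The groups did not overlap, with treated signals of 1660 to 1960 and control signals of 952 to 1070, and each day passed (adjusted p = 0.00676 and 0.00901). Trim6 had 5 probes, whose means were 0.85, 0.73, 0.61, 0.22 and 0.19. All 20 probe readings were above 0, so the probes shared the direction and differed in size, and their average was 0.52 (adjusted p = 0.00398).

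**Figure D3:**
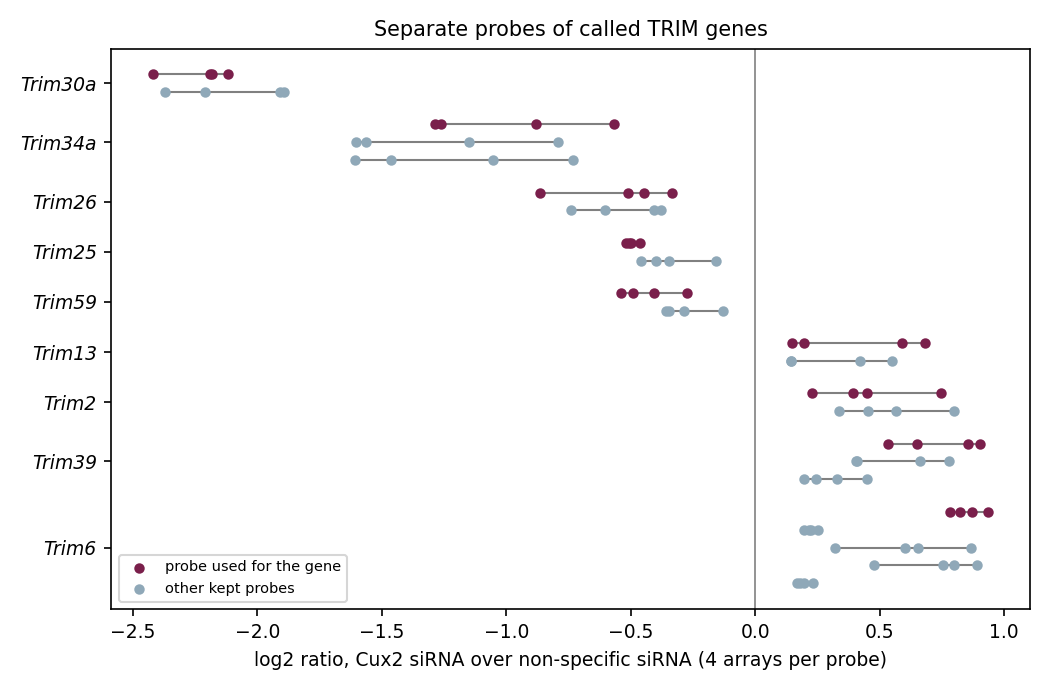
Log2 ratios of the separate probes (rows of points, 4 arrays each) of the 9 called TRIM genes with several probes above background; dark points are the probe that stood for the gene. Within each gene every probe lies on the same side of 0, while the 5 probes of Trim6 range from means of 0.19 to 0.85.

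Of the 28 other members, Trim39, Trim2, Trim13 and Trim7 rose over both days and Trim59 fell. Trim39, a SPRY-domain ubiquitin ligase linked to cell death and the cell cycle, had ratios of 0.53 and 0.86 at day 5 and 0.65 and 0.90 at day 8. Its rise was 0.74 (SE 0.08, adjusted p = 0.00485), or 1.66-fold, from control signals of 938 to 1070 to treated signals of 1540 to 1800, and it passed at each day (adjusted p = 0.0232 and 0.0207), though not with processed signals (0.0579 and 0.058). Its 3 probes gave 0.74, 0.56 and 0.30. Trim39 lies on chromosome 17, as Trim26 does, and these 2 genes moved in opposite directions.

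Trim2 and Trim13 passed at day 5 and not at day 8, Trim2 not with processed signals or without background subtraction. Trim2 carries NHL repeats and is known for its work on neurofilaments in neurons; its ratios were 0.75 and 0.45 at day 5 and 0.39 and 0.23 at day 8, a mean of 0.45 (SE 0.07, adjusted p = 0.0117). Trim13, anchored in the endoplasmic reticulum membrane and active in protein degradation there, had 0.68 and 0.59 at day 5 and 0.15 and 0.20 at day 8, a mean of 0.40 (SE 0.05, adjusted p = 0.00609). Both genes had a second probe on the same side, at 0.54 for Trim2 and 0.31 for Trim13.

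The difference between the days was tested directly. No member passed, and neither did any other gene (0 of 25092, 0%, by limma, with 620 at an unadjusted p under 0.05). Trim13 was the 1 member with an unadjusted p under 0.05 by limma (day 8 minus day 5 of -0.46, SE 0.10, adjusted p = 0.9998), its 2 day 5 arrays lying above its 2 day 8 arrays. For the 13 interferon-induced members the difference ranged from -0.17 to 0.12, so the values at day 5 and day 8 lay side by side gene by gene. No difference between days was thus detectable with 2 arrays a day.

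Trim7 and Trim59 were dim. Trim7, which binds glycogenin, the protein primer of glycogen, gave 0.33 and 0.25 at day 5 and 0.20 and 0.47 at day 8, a mean of 0.31 (SE 0.06, adjusted p = 0.0244), with control signals of 84.6 to 96.9 and treated signals of 102 to 122. Its call was lost without background subtraction (0.08, adjusted p = 0.0852) and without any array but replicate 1 of day 8 (adjusted p = 0.0828 to 0.0989). Trim59, a membrane-anchored member, gave -0.54 and -0.41 at day 5 and -0.27 and -0.49 at day 8, a mean of -0.43 (SE 0.06, adjusted p = 0.00938), and passed at day 5 alone of the days (adjusted p = 0.0299). Its treated signals of 82.2 to 105 overlapped its control signals of 99.4 to 147 across arrays, although each array's own ratio was below 0. With processed signals, both ratios were larger, 0.82 for Trim7 and -0.91 for Trim59, whereas without background subtraction Trim59 was at -0.13 (adjusted p = 0.0499). Its day 5 call was lost under both settings (adjusted p = 0.0772 and 0.108).

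**Figure D4:**
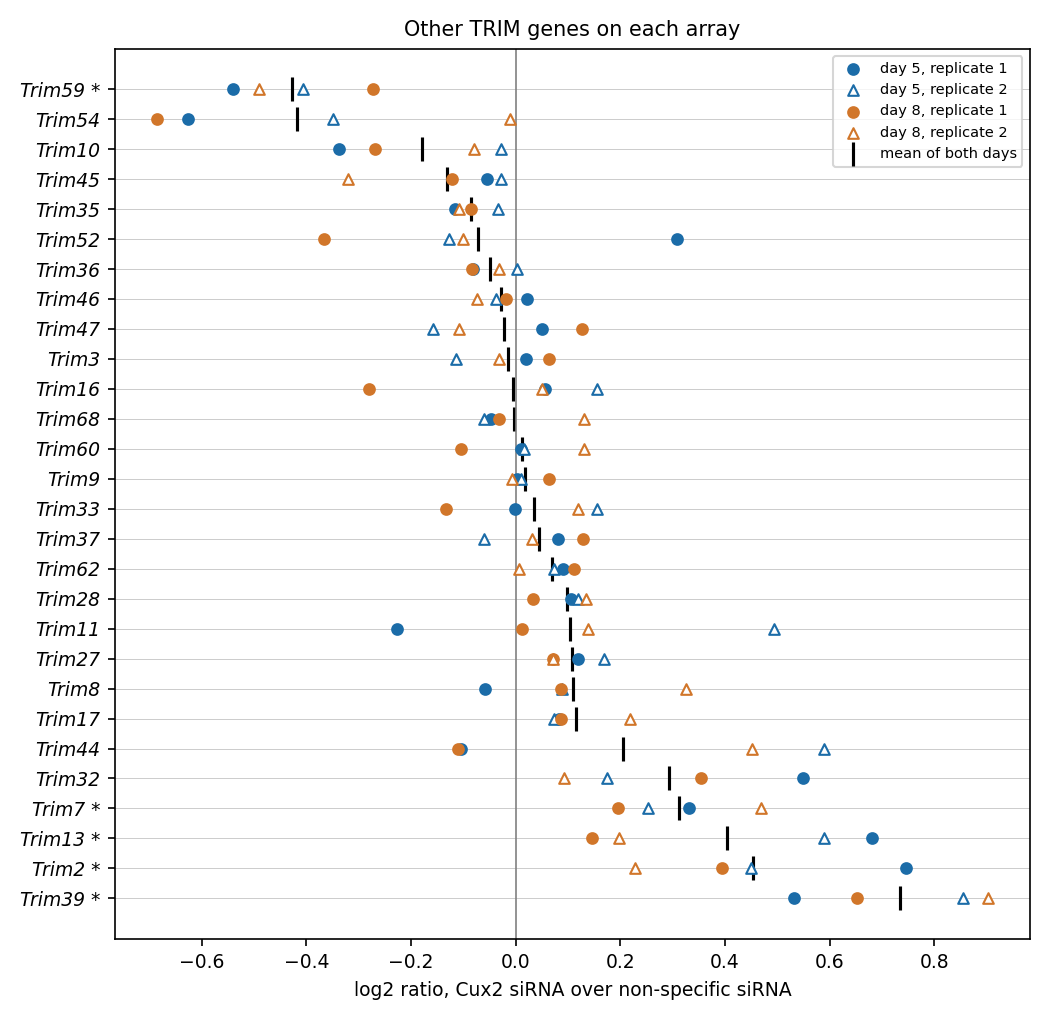
Log2 ratio of Cux2 siRNA over non-specific siRNA (x axis) for the 28 other TRIM genes (rows) on each of the 4 arrays, with means of both days as black bars and an asterisk for an adjusted p under 0.05 over both days. The 5 called genes stand at the ends, and 20 of the 23 genes without a call have a mean within 0.2 of 0.

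By domain, few of the other members were called. The classes are too small for these counts to be read as a trait of a domain. Over both days 14.8% of all genes rose and 16.3% fell. Of the 11 SPRY members outside the interferon list and outside the classes below, Trim7 and Trim39 rose and 9 did not pass. The microtubule-linked class below is also one of SPRY members. Of 3 with NHL repeats, Trim2 rose and Trim3 and Trim32 did not pass. Of the 2 transmembrane members, Trim13 rose and Trim59 fell. None of the 2 chromatin cofactors with PHD finger and bromodomain (Trim28 and Trim33) and the 3 microtubule-linked members (Trim9, Trim36 and Trim46) passed. The same held for the 2 with ARF, MATH or filamin domains (Trim37 and Trim45) and the 2 without a RING (Trim16 and Trim44). The 2 classed by RING and B-box with no further named domain (Trim8 and Trim52) did not pass either. The 23 members without a call had means over both days from -0.42 to 0.29, with SEs of 0.05 to 0.15. Trim28, the corepressor of KRAB zinc finger proteins, was bright, with 4970 to 5420 in control and 5230 to 5940 in treated channels, and its mean was 0.10.

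The ends of that range were Trim54 and Trim32, named here after their values were seen. Trim54 is a ubiquitin ligase of striated muscle, and its ratios were -0.63 and -0.35 at day 5 and -0.69 and -0.01 at day 8 (mean -0.42, adjusted p = 0.0656). Of 4 skeletal muscle markers 2 fell over both days, where 16.3% of all genes fell. Ckm was above background in 6 of 8 readings and the others in 8. The 4 markers had a median of -2.07 and summed signals of 1970 to 5250 in control against 574 to 1680 in treated channels. Their part in the Trim54 value was not tested. Trim32 had a mean of 0.29 (adjusted p = 0.0621), and its second probe stood at 0.00. Trim3, Trim8, Trim16, Trim37, Trim44 and Trim45 had probes whose means differed in sign, and among them Trim44 differed most, with 0.21 and -0.28. Trim17 was not well above background in either treated channel of day 5, and its control channel was so on 1 of the 4 arrays, so its day 5 ratio is not read here.

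Genes that work with the TRIM proteins in antiviral signalling were read from a list of 30, of which 26 were tested. Over both days 14 of the 26 fell and 0 rose, with a median of -0.55, where 16.3% of all genes fell. At each day 12 fell, where 9.43% of all genes did so at day 5 and 8.05% at day 8. Among them were Usp18 (-3.21, SE 0.10, adjusted p = 0.000454), which removes the ubiquitin-like tag ISG15, and Isg15 itself (-3.03, SE 0.06, adjusted p = 0.00031). Uba7 and Ube2l6, the enzymes that charge and carry ISG15, fell too (-2.37 and -1.08). Partners of TRIM25 fell with it, Zc3hav1, which encodes ZAP, at -1.57 and Ddx58 at -0.95.

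The kinases and adaptors downstream of the sensors were mixed. Irf7, an interferon-induced factor that itself drives interferon genes, fell (-2.54, SE 0.05, adjusted p = 0.00031), as did Ifih1, the sensor MDA5 (-1.28), Tbk1 (-0.66) and Ikbke, whose product TRIM6 binds (-0.44). Irf3, which is present without interferon, stood at 0.03 (SE 0.06, adjusted p = 0.752), Traf3 at 0.01 and Mavs at -0.20, and none of them passed. The ubiquitin-conjugating enzymes that serve RING ligases, Ube2d1, Ube2d2a, Ube2d3, Ube2n and Ube2v1, had values from -0.16 to 0.11 and none passed. Stat2 at -0.44 (adjusted p = 0.0781) and Irf9 at -0.35 (SE 0.44, adjusted p = 0.607), whose products act together at the ISRE, also did not pass, Irf9 with a wide spread between arrays. Stat2 and Irf9 do not stand for every transcription factor of the list. Irf7 fell, and the genes that fell also include some not named here.

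**Figure D5:**
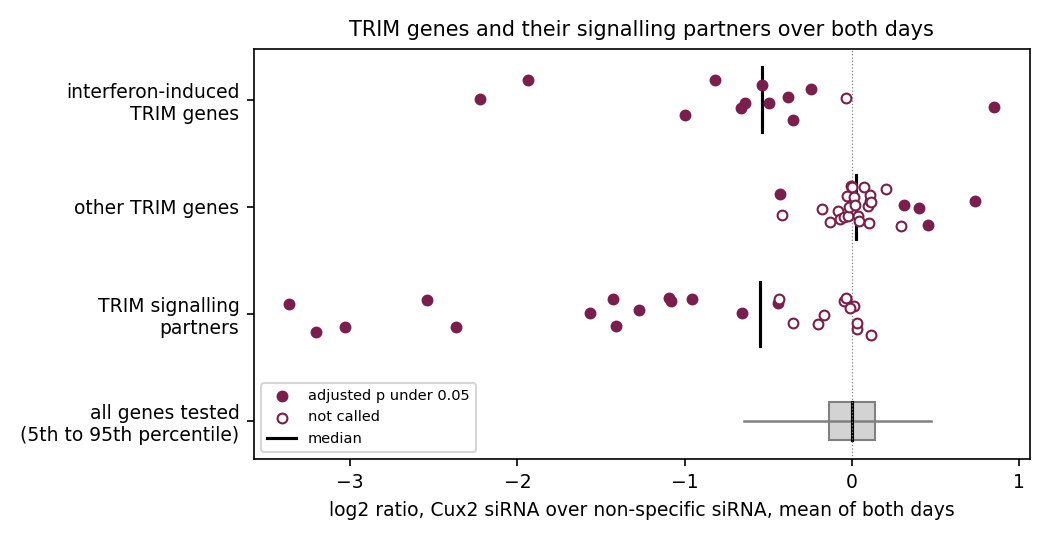
Log2 ratio over both days (x axis) of the interferon-induced TRIM genes, the other TRIM genes and the list of signalling partners; filled points had an adjusted p under 0.05, black bars are medians, and the box and line give the 25th to 75th and 5th to 95th percentiles of all genes tested. The medians are -0.54, 0.03 and -0.55, and the middle 90% of all genes spans -0.65 to 0.47.

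Among TRIM genes with other names, 5 of 6 were tested. Pml, the scaffold of PML nuclear bodies and itself interferon-induced, fell by 1.43 over both days (SE 0.12, adjusted p = 0.00281). Its nuclear body partner Daxx fell too (-1.09). Pml and Daxx are also counted among the falls of the signalling partners above. Mid1, a microtubule-linked ligase, fell by 0.58 (SE 0.06, adjusted p = 0.00499) and Bspry rose by 0.48 (SE 0.06, adjusted p = 0.00587). Mid2 at 0.10 and Mefv at -0.40 did not pass.

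Markers of several immune cell types fell beside the interferon-induced members, and those of B cells did not. For all the counts that follow, 16.3% of all genes fell over both days and 14.8% rose. Of 9 macrophage and Kupffer cell markers tested, 7 fell over both days and 0 rose. Their median was -0.72, with summed signals of 56100 to 59600 in control against 31000 to 41100 in treated channels. The 7 falls were uneven, from -2.84 for Marco and -1.40 for Aif1 to -0.39 for Clec4f. Csf1r (-0.34) and Vsig4 (-0.08) did not pass. Of 5 neutrophil markers 4 fell, with sums of 11800 to 16800 against 1890 to 3430. S100a8 (-2.41) and S100a9 (-2.50) were far lower than Cxcr2 (-0.62), Mpo (-0.56) and Ngp (-0.12, not called). Of 7 T and NK cell markers 4 fell, with sums of 2780 to 3530 against 1610 to 1970. The 4 were the NK and cytotoxic genes Nkg7, Klrk1, Gzma and Gzmb, while the T cell markers Cd3e (-0.08), Cd3g (-0.16) and Cd4 (0.00) did not pass. Of 4 plasmacytoid dendritic cell markers 3 fell, with sums of 44600 to 54400 against 15400 to 19900. Bst2, which interferon also induces, had by far the lowest value (-1.73), against -0.23 for Siglech, -0.21 for Ccr9 and 0.07, not called, for Tcf4. Of 4 B cell markers 0 fell and 1 rose, with sums of 744 to 809 against 722 to 1080. No tested marker of these lists was without signal; Ngp and Cd79a were above background in 5 and 7 of 8 readings and the rest in 8. In the same fit 3 of 5 endothelial markers fell and 1 rose, 2 of 5 stellate cell markers fell and 3 rose, and 1 of 3 red cell markers rose. Of 5 exocrine pancreas markers 3 (Cpa1, Prss2 and Pnlip) passed as falls over both days (adjusted p = 0.0483 to 0.0494) and none at either day, and all 5 were above 0 on the array of day 8 replicate 1, where these 3 stood at 0.46, 0.46 and 0.50. In whole-liver RNA, fewer cells of a type and less RNA per cell cannot be told apart, and the part of these cells in the TRIM ratios was not tested.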

How the data were processed

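Liver RNA pools were measured on 4 Agilent 2-colour arrays of 1 slide and 1 scan. The intensity values deposited by the authors are median spot and local background brightness as scanned; per the file headers the software was Feature Extraction 10.7.1.1, and the processed signals are background-subtracted and dye-normalized there. The authors' deposited log10 ratio table equalled the scanner's own log10 ratios within 1e-05 for 45018 of 45018 features, with the sign turned where the treated pool was in Alexa 555, so it gives treated over control. The labels' dyes set the direction. The design had named mean signals; median signals were used, since the tables analysed hold these.

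Background was corrected by normexp (offset 50) and log2 ratios were normalized within arrays by loess, the 1639 control spots having weight 0 (limma 3.58.1, R 4.3.3). Between 181 and 298 outlier spots per array were left out and 0 were saturated; median signals were 381.5 to 471.5 over backgrounds of 306 to 342. Of 41174 probes 23374 (56.8%) were named through RefSeq accessions in a GRCm38.p6 table, and 31760 were well above background in at least 2 of 8 readings. The brightest kept probe stood for a gene. One lmFit and eBayes fit over 4 arrays (2 residual degrees of freedom, 2.77 from the prior) gave day 5, day 8, their mean and their difference, with Benjamini-Hochberg adjustment over 25092 genes and a threshold of 0.05. Channel signals come from quantile-scaled averages (Aquantile) and are compared between treated and control within a probe. The exceptions are the marker lists, whose signals are summed over probes so that the brightest weigh most. Genes are called bright or dim by the level of their own probe.

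In simulated arrays of 25092 genes, the test over both days recovered 44% of changes of 0.5 on the log2 scale, 68% of 1, 96% of 2 and 100% of 4. Only 50 genes were changed per size, whereas 7797 genes were called in the data, and the noise was drawn independently for each array. The Benjamini-Hochberg threshold and the shared control pools of the data were thus not matched. These rates check the fit and are not its power here. The members and lists were chosen with earlier results of these data known. Named were all tested interferon-induced members, the others called with 1 sign on all arrays, and members whose probes differed in sign. The promoter sequences are RefSeq's, build GRCm38.p6, and the array design's own build was not used for coordinates. Alternatives were other background corrections, normalizations, filters and probe rules, a replicate block, and leaving out each array. One gene of the list of signalling partners is counted there but is not reported here by itself.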

Additional observations from a re-analysis of the deposited data

How the results depend on the processing

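The direction of Cux2, of the 17 called members and of Trim69 was kept under all alternatives at each day and over both, and the difference between days gave 0 called members in each. The counts of called members (main values 11 at day 5, 7 at day 8 and 17 over both days) changed as follows, and where an alternative does not itself use fewer arrays the cause was not tested. Without background subtraction they were 6, 5 and 10; with the scanner's processed signals 4, 4 and 16, and with the authors' log10 values 4, 4 and 16, of which 13 were among the 17; with median centring 0, 0 and 2. On leaving out 1 array they ranged from 2 to 10 at day 5, from 1 to 8 at day 8 and from 12 to 14 over both days. Over both days the members rose and fell in a split of 5 to 12. That split was 5 to 5 without background subtraction, 7 to 9 with processed signals and 0 to 2 with median centring. All genes called over both days were 7797 (47.6% of them rises), and 269 (32.3% rises) with median centring. Without background subtraction they were 6201, and with processed signals 6654. At day 5 and day 8, all genes called were 4216 and 3595 in the main setting and 2881 and 2108 without background subtraction. They were 2010 and 1476 with processed signals and 5 and 3 with median centring.

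The median of the interferon-induced members over both days was -0.74 with processed signals and -0.74 with the authors' log10 values, and -0.67 to -0.51 on leaving out 1 array. The median of the others was 0.11 with both of those, against 0.047 for all genes there, and 0.020 to 0.058 on leaving out 1 array.

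With the replicate number as a block, 18, 16 and 21 members were called, and 8238, 7452 and 11255 of all genes; all of the calls made without it were kept. It added Trim10, Trim32, Trim44 and Trim54 over both days, Trim12a, Trim21, Trim30b, Trim32, Trim44, Trim54 and Trim56 at day 5, and Trim2, Trim7, Trim12a, Trim21, Trim26, Trim30b, Trim54, Trim56 and Trim59 at day 8. Deviations of same-numbered arrays from their day's mean correlated at 0.5 over all genes and 0.587 over the 41 members, which with 2 numbers that also mark the dye does not settle a pairing. Precision is limited by the 4 arrays, and for members near background by their signal.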
